A study of Mus musculus with 8 samples.

Results

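The 10 genes described are 5 genes of receptors for Wnt proteins (Fzd1, Fzd2, Fzd7, Lrp5, Lrp6) and 5 genes of secreted Wnt antagonists (Wif1, Dkk2, Dkk3, Sfrp1, Sfrp2). They were chosen by gene symbol in the array annotation, and all 10 were measured among 22180 genes. Their expression was read on 8 arrays of amplified cDNA from cells sorted out of mouse skin. The sort took cells that carried green fluorescent protein and lacked p75 at the surface. P4_WT (2 arrays) held cells that the labels call melanoblasts, from pups of 4 days, and P21_WT (2 arrays) held cells called melanocyte stem cells, from mice of 21 days. Both were B-raf +/+ and C-raf +/+. P21_KO (4 arrays) held the latter cells from mice of 21 days with B-raf fl/fl and C-raf fl/fl alleles, labelled as a knockout. All 3 groups carried the Tyr::Cre transgene, in which a tyrosinase promoter drives Cre recombinase in the pigment lineage, and the Z/EG reporter, on a mixed C57Bl/6 and 129/Sv background. The labels of P21_KO replicates 2, 3 and 4 carry one number in common, of unstated meaning, so these may not be independent animals. The p-values measure only the spread between these samples.

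Wnt proteins bind Frizzled receptors together with the co-receptors Lrp5 or Lrp6, and the signal stabilises beta-catenin, which acts with LEF/TCF factors on target genes. Secreted antagonists act outside the cell. Wif1 and the Sfrp proteins bind Wnt proteins, whereas several Dkk proteins, Dkk2 among them, bind the Lrp co-receptors; Dkk3 is the divergent member of its family. In skin, Wnt signals from the hair follicle drive the development of melanoblasts and the activation of melanocyte stem cells at each hair cycle.

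Wif1 fell with age in wild-type cells, by 2.84-fold, and was the only one of the 10 genes to pass the test in that comparison. Fzd1 was 3.03-fold lower in P21_KO than in P4_WT, with P21_WT between them, and Wif1 and Sfrp1 were also called lower in P21_KO than in P4_WT. The Fzd1 call held in all 19 alternative analyses, though some of these coincide or could not lose it. Both Wif1 calls and the Sfrp1 call depended on which arrays entered the fit. None of the 10 genes passed the test between P21_KO and P21_WT, where Fzd1, Lrp5 and Dkk2 had the smallest p-values, all with lower means in P21_KO.

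The sequences before the start sites of Fzd1 and Wif1 are shown because these are the 2 genes with a called change and a sequence in the RefSeq promoter table (build GRCm38.p6, which held 5 of the 10 genes: Fzd1, Fzd7, Wif1, Dkk2 and Sfrp2). Each run is the 250 bases before the start, 5′ to 3′ on the strand of the gene, at chr5:4758217-4758466 on the minus strand for Fzd1 and chr10:121033754-121034003 on the plus strand for Wif1. Capitals mark matches, on either strand, to CTTTGAT and CTTTGAA, which LEF/TCF factors bind, and to CATGTG and CACGTG, E-boxes of the kind that MITF binds.
Fzd1: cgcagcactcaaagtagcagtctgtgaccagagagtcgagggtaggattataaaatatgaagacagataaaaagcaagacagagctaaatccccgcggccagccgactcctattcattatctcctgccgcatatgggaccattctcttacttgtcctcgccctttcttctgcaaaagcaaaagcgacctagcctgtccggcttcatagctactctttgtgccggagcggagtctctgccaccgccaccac
Wif1: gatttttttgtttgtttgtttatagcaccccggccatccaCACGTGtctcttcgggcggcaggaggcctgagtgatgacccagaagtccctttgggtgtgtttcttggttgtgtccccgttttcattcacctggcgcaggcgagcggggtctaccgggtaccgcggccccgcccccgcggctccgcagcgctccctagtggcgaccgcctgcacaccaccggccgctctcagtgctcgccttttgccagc
The Wif1 run held 1 match, CACGTG, which begins 210 bases before the start. That motif occurs in 6.02% of 32851 promoters of the same length. The Fzd1 run held none of the 4 motifs. CTTTGAT is present in 3.21%, CTTTGAA in 4.46% and CATGTG in 12.3% of all promoters, and none of them in the 5 member promoters. The Wif1 run has 21 CpG pairs and the Fzd1 run 12, against a median of 6 over all promoters (quartiles 2 and 16). These are letters in a window and say nothing about binding.

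The labelled cell type was checked first. All 10 genes of a melanocyte lineage list, Dct, Mitf and Sox10 among them, read above the median of all genes on every array. The list's mean log2 value was 9.55 to 9.62 in P4_WT, 8.55 to 8.62 in P21_WT and 6.63 to 8.21 in P21_KO. Genes of keratinocytes (mean 5.77 to 7.21 over the 8 arrays) and of Schwann cells and glia (6.51 to 7.42) were also read. In P21_KO replicate 4 the melanocyte list (6.63) read below the keratinocyte (7.21) and glial (7.03) lists. In P21_KO replicate 3 it read 7.15, against 7.21 for the glial and 6.72 for the keratinocyte list. On the remaining arrays the melanocyte list was the highest of these lists. Means of lists of different genes are not amounts of cells. P4_WT replicate 1 had the highest hair shaft and inner root sheath mean (5.43, against 3.88 in replicate 2 and 2.86 to 3.02 at P21). P4_WT replicate 2 had the highest endothelial (5.36) and mast cell (4.35) means. Braf, a target of the knockout, read 5.66 to 6.57 in P21_KO and 5.99 and 7.20 in P21_WT (change -0.34 ± 0.36 SE, limma adjusted p = 0.944). Across genes, the correlation between arrays within a group was 0.954 to 0.974, and between arrays of different groups it was 0.910 to 0.977.

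**Figure D1:**
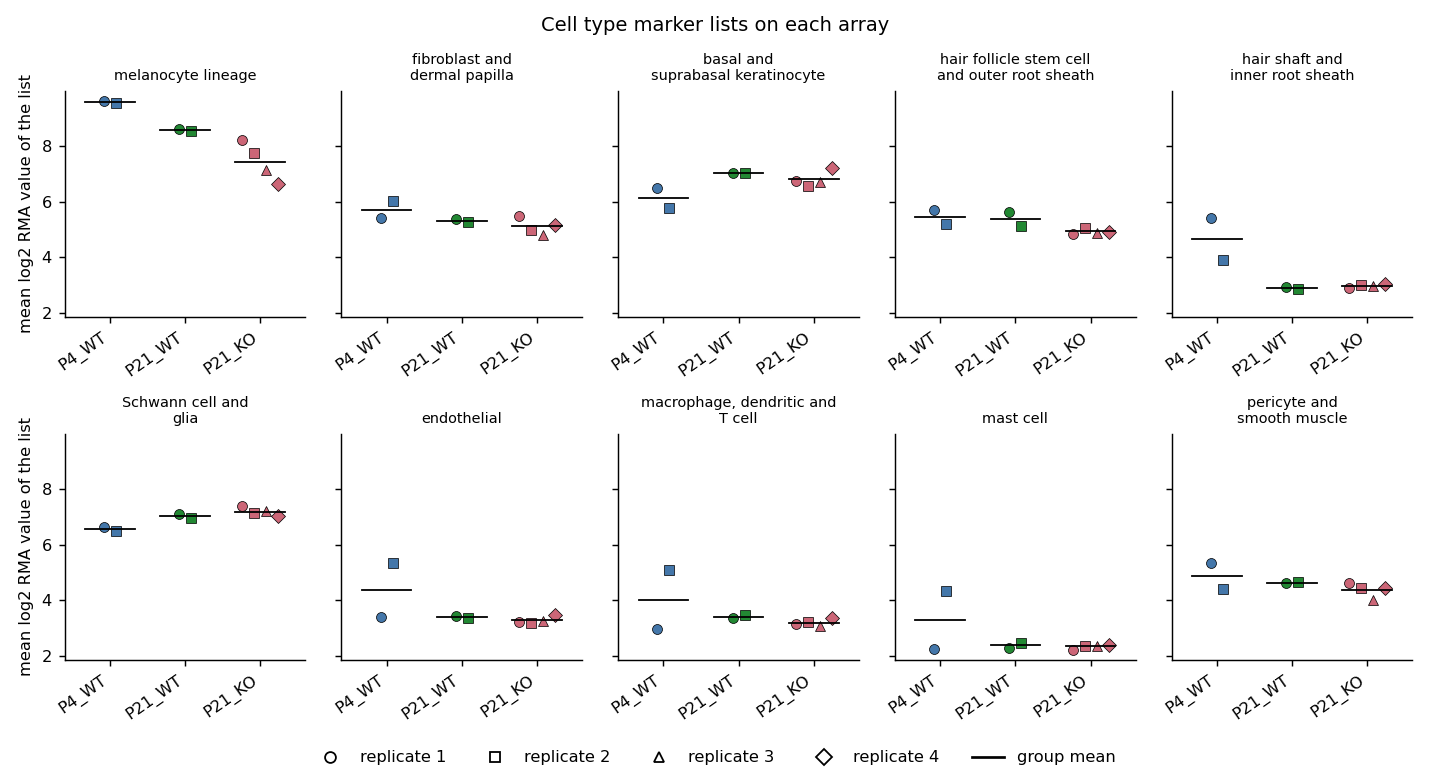
Mean log2 RMA value of 10 cell type marker lists (panels) on each array, with groups on the x axis, 1 point per array (shape gives the replicate number) and a line at the group mean. The melanocyte lineage list is highest in P4_WT (9.55 to 9.62) and lowest in P21_KO replicate 4 (6.63), and the hair shaft, endothelial, immune and mast cell lists differ most between the 2 P4_WT arrays.

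Among the receptors, Fzd1, a Frizzled receptor gene, had an ordered pattern over the groups. On the log2 scale of the arrays its level was 6.72 and 6.41 in P4_WT, 5.81 and 5.46 in P21_WT, and 5.07, 5.05, 4.92 and 4.82 in P21_KO. No pair of groups overlapped. The age difference (P21_WT minus P4_WT) was -0.94 ± 0.20 (SE), with a limma adjusted p of 0.0636. The genotype difference (P21_KO minus P21_WT) was -0.67 ± 0.17 (SE), with a limma adjusted p of 0.565, so neither step passed alone. From P4_WT to P21_KO the level fell by 1.60 ± 0.17 (SE) on the log2 scale (limma adjusted p = 0.00148), and this call held in all 19 alternative analyses, the omission of each array included. In whole sorted samples, fewer cells of a type and less RNA per cell cannot be told apart. The melanocyte lineage list was lower in the same order of groups as Fzd1, with 9 of 10 genes lower in each comparison. From P4_WT to P21_KO 6 of its 10 genes fell and 1 rose past the threshold, against 4.68% and 3.05% of all genes. With age or genotype 0 of its genes were called by limma. At an unadjusted p under 0.05, 1 was higher and 4 lower with age (5.17% and 7.46% of all genes). With genotype 7 were lower at that level (3.69% of all genes). The part of the melanocyte list in the Fzd1 values was not tested.

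The other Frizzled genes among the 10 had smaller or less even differences. Fzd7, which encodes a receptor of the same subgroup as Fzd1 and Fzd2, read 5.08 and 4.34 in P4_WT, 4.18 and 4.76 in P21_WT and 4.04, 4.00, 3.91 and 3.67 in P21_KO. The 4 P21_KO arrays lay below both wild-type groups, which overlapped each other. The difference from P21_WT to P21_KO was -0.56 (95% interval -1.14 to 0.01; limma adjusted p = 0.781), and that from P4_WT to P21_KO was -0.81 (limma adjusted p = 0.101). The sign of its age difference, -0.24, turned without P4_WT replicate 1 (0.13) or without P21_WT replicate 1 (0.04).

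Fzd2 read 4.27 in P4_WT replicate 1 and 3.18 in replicate 2, 3.11 and 3.23 in P21_WT, and 2.87 to 3.23 in P21_KO. Only P4_WT replicate 1 stood above the median of all genes on its array, medians that ran from 3.34 to 3.40. The age difference of -0.55 ± 0.32 (SE, limma adjusted p = 0.566) was -0.0058 without that array. The difference between P21_KO and P4_WT, -0.69 (limma adjusted p = 0.205), became -1.24 without P4_WT replicate 2, which leaves only replicate 1 in that group. Differences among values below that median may be compressed, which was not measured.

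Lrp5 and Lrp6 encode the co-receptors. Lrp5 read 5.33 and 5.49 in P4_WT, 5.57 and 5.83 in P21_WT and 5.19, 5.07, 5.02 and 4.47 in P21_KO. All 4 P21_KO arrays lay below every wild-type array. The genotype difference was -0.76 ± 0.22 (SE; 95% interval -1.26 to -0.27), which did not pass (limma adjusted p = 0.599), and the age difference was 0.29 (95% interval -0.28 to 0.86). P21_KO replicate 4, the lowest Lrp5 value, was also the array with the lowest mean of the melanocyte lineage list. Without it the genotype difference was -0.61, and over the 19 alternatives it ran from -0.89 to -0.57.

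Lrp6 varied little. It read 7.13 and 7.22 in P4_WT, 7.09 and 7.34 in P21_WT and 7.11 to 7.59 in P21_KO, and all groups overlapped. The 95% interval of its difference was -0.43 to 0.50 with age, -0.33 to 0.48 with genotype and -0.29 to 0.51 from P4_WT to P21_KO, so changes of more than 0.51 in either direction lie outside all 3 intervals. A second Lrp6 probe set, which was not used because its mean is lower, had an age difference of -0.37 and a difference of -0.41 from P4_WT to P21_KO, so the sign of the Lrp6 differences depends on the probe set.

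**Figure D2:**
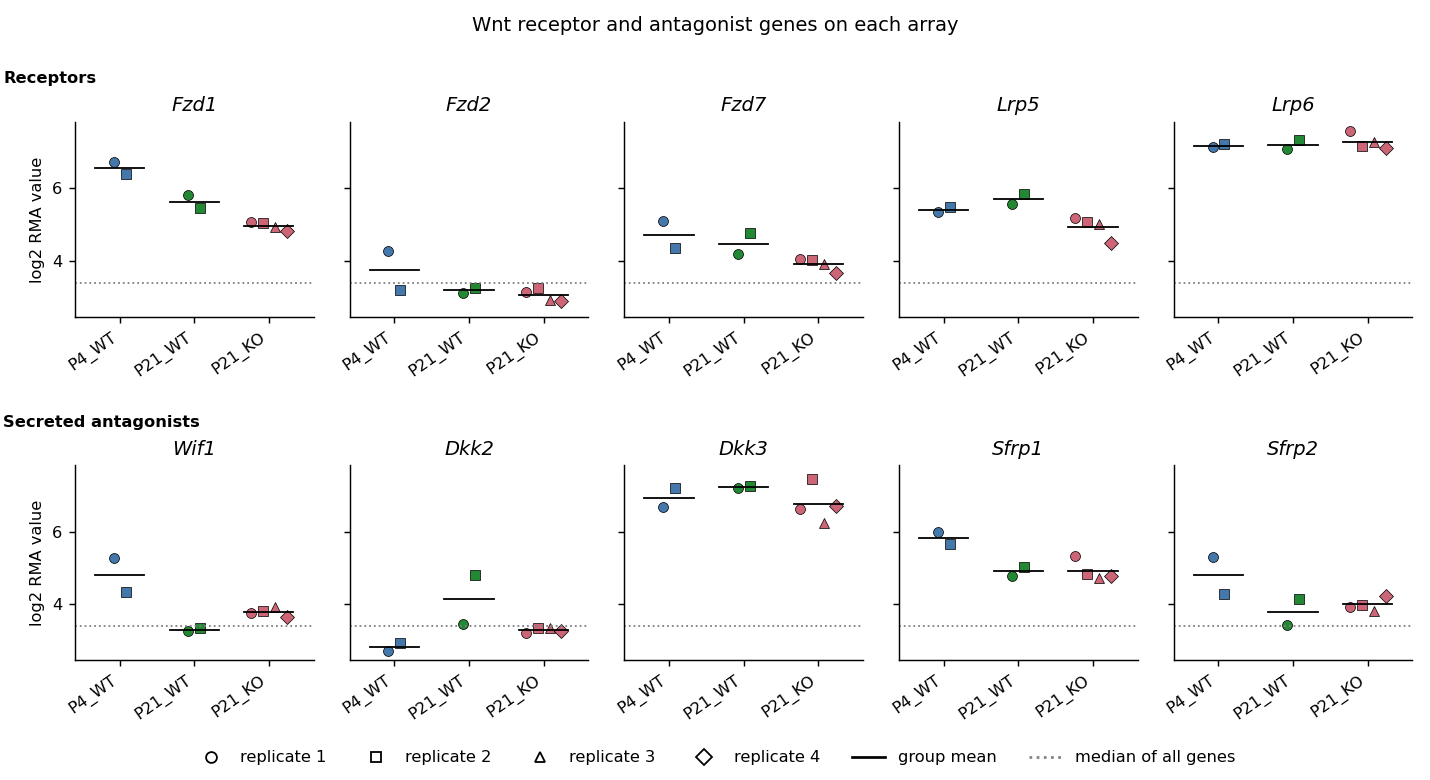
log2 RMA value (y axis) of the 5 receptor genes (top row) and the 5 antagonist genes (bottom row) on each of the 8 arrays, by group (x axis). Points are arrays (shape gives the replicate number), solid lines are group means, and the dotted line is the median of all genes; levels of different genes cannot be compared. Fzd1 steps down from 6.41 to 6.72 in P4_WT to 4.82 to 5.07 in P21_KO, Wif1 is lowest in P21_WT (3.24 and 3.33), and the 2 P21_WT values of Dkk2 (3.45 and 4.80) lie far apart.

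Among the antagonists, Wif1, which encodes a secreted protein that binds Wnt ligands, read 5.26 and 4.31 in P4_WT, 3.24 and 3.33 in P21_WT and 3.75, 3.79, 3.90 and 3.63 in P21_KO. The 3 groups did not overlap, and P21_WT was the lowest of them. Wif1 fell by 1.50 ± 0.28 (SE) with age on the log2 scale (limma adjusted p = 0.0431). From P4_WT to P21_KO it fell by 1.02 ± 0.24 (SE, limma adjusted p = 0.0415). The genotype difference was 0.49 ± 0.24 (SE), with a higher mean in P21_KO, and did not pass (limma adjusted p = 0.821; 95% interval -0.07 to 1.05).

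Both Wif1 calls depended on the arrays in the fit. Each was missed without each P21_KO array in turn. The limma adjusted p was then 0.0604 to 0.0773 for age and 0.0749 to 0.0817 for P21_KO against P4_WT. With only the 2 groups compared in the fit they were also missed, at 0.192 and 0.0673. Without P4_WT replicate 1 the differences were -1.03 and -0.54, and without replicate 2 they were -1.98 and -1.49. Both P21_WT values lay below the median of all genes on those arrays, where differences may be compressed. Markers of the hair shaft and inner root sheath were lower alongside Wif1. Of 14 measured members of that list, 13 were lower in P21_WT than in P4_WT, against 49.8% of all genes. Past the threshold were 3 of them, all lower, against 0.852% of all genes. The list's mean was also higher in P4_WT replicate 1 (5.43) than in replicate 2 (3.88). The part of such cells in the Wif1 change was not tested.

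Sfrp1, which encodes a secreted Frizzled-related protein that binds Wnt ligands, read 6.00 and 5.66 in P4_WT, 4.78 and 5.02 in P21_WT and 5.31, 4.81, 4.71 and 4.78 in P21_KO. Both P4_WT arrays lay above all 6 arrays of P21. The mean was 0.93 below P4_WT in both P21 groups, at -0.93 on the log2 scale. The call passed for P21_KO against P4_WT (-0.93 ± 0.21 SE, limma adjusted p = 0.033) and not for P21_WT against P4_WT (-0.93 ± 0.24 SE, limma adjusted p = 0.124). Between the P21 groups the difference was 0.0032 ± 0.21 (SE; 95% interval -0.48 to 0.48). The call in P21_KO was kept without P21_KO replicate 1 (-1.06, limma adjusted p = 0.0145) and was missed without each of the other 7 arrays, at limma adjusted p from 0.0505 to 0.202.

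Sfrp2, of the same family, read 5.30 and 4.28 in P4_WT, 3.41 and 4.12 in P21_WT and 3.80 to 4.23 in P21_KO. P4_WT lay above both other groups, by a small margin for its replicate 2. A second Sfrp2 probe set, which was not used because its mean is lower, read below the median of all genes on every array. It read 2.64 and 2.46 in P4_WT, 2.41 and 2.20 in P21_WT and 2.08 to 2.51 in P21_KO, so there P4_WT overlapped P21_KO. The values that follow are those of the first probe set. The age difference was -1.03 ± 0.35 (SE, limma adjusted p = 0.251), and that from P4_WT to P21_KO was -0.81 ± 0.31 (SE, limma adjusted p = 0.174). Without P4_WT replicate 1 these were -0.52 and -0.30. Without P4_WT replicate 2 they were -1.54 and -1.33. Of 15 fibroblast and dermal papilla markers, 12 were lower with age (1 called lower, 0 higher) and 12 were lower in P21_KO than in P4_WT (3 called lower, 1 higher). The list had a mean of 5.40 and 6.02 in P4_WT replicates 1 and 2, 5.25 to 5.36 in P21_WT and 4.81 to 5.48 in P21_KO. Within P4_WT it was higher in replicate 2, whereas Sfrp2 was higher in replicate 1. The hair shaft and inner root sheath list was higher in replicate 1 (5.43, against 3.88 in replicate 2). Of its 14 measured genes, 13 were lower with age (3 called) and 13 in P21_KO against P4_WT (6 called). For both lists, the shares of all genes called were 0.852% lower and 0.757% higher with age. In P21_KO against P4_WT they were 4.68% lower and 3.05% higher. The change was below 0 for 49.8% and 47.3% of all genes. The part of either list in the Sfrp2 values was not tested.

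Dkk2, whose protein binds the Lrp co-receptors, read 2.69 and 2.91 in P4_WT, 3.45 and 4.80 in P21_WT, and 3.19, 3.33, 3.33 and 3.24 in P21_KO. P21_WT stood above the other groups, but its 2 arrays were 1.35 apart, and 6 of the 8 arrays read below the median of all genes. The age difference was 1.32 ± 0.37 (SE, limma adjusted p = 0.149) and the genotype difference was -0.85 ± 0.32 (SE, limma adjusted p = 0.712). The size of both differences rested on P21_WT replicate 2. Without it they were 0.65 and -0.18, and without P21_WT replicate 1 they were 2.00 and -1.53, each with 1 P21_WT array left. Of 14 measured keratinocyte markers, 12 were higher with age (2 called, against 0.757% of all genes called higher). With genotype 11 were lower and 0 were called by limma, as were 0% of all genes. At an unadjusted p under 0.05, 1 was higher and 0 lower with genotype, against 2.84% and 3.69% of all genes. That list had a mean of 5.77 and 6.50 in P4_WT, 7.04 to 7.05 in P21_WT and 6.57 to 7.21 in P21_KO, and its part in the Dkk2 values was not tested.

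Dkk3 read 6.67 and 7.20 in P4_WT, 7.21 and 7.25 in P21_WT and 6.62, 7.46, 6.24 and 6.71 in P21_KO. The P21_KO arrays spanned 1.22 and enclosed all values of the wild-type groups. The differences were 0.30 with age, -0.48 with genotype (95% interval -1.20 to 0.25) and -0.18 from P4_WT to P21_KO, with limma adjusted p of 0.848, 0.881 and 0.824.

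**Figure D3:**
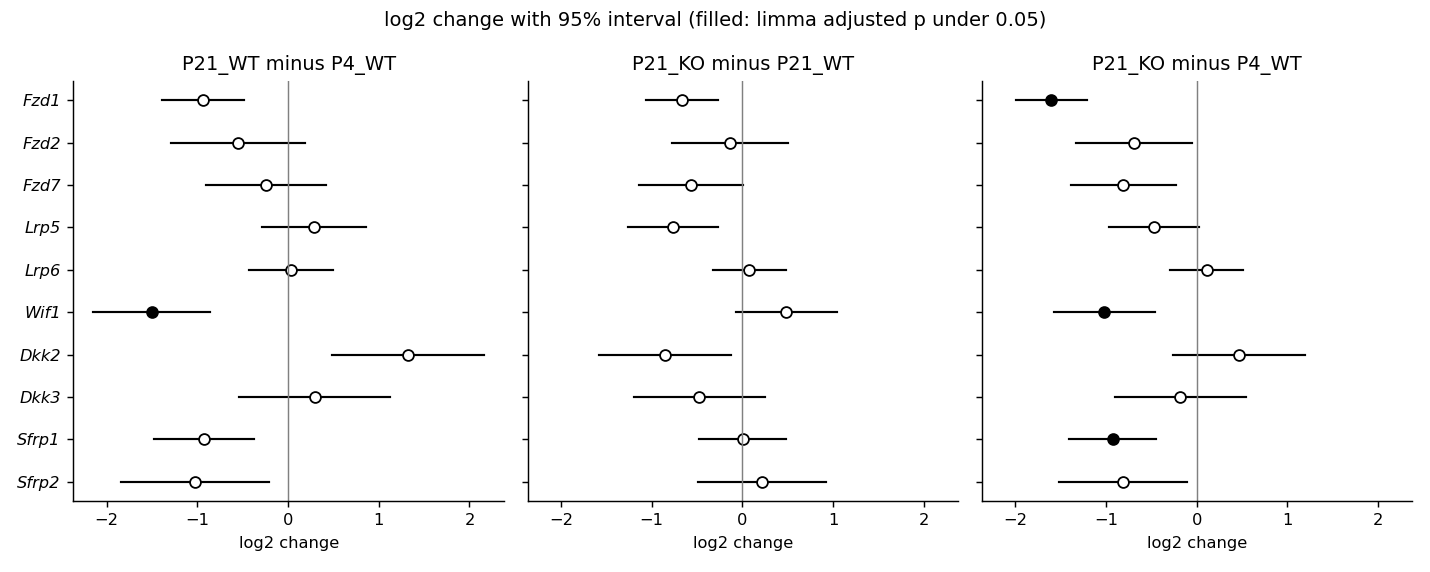
log2 change (x axis) of each of the 10 genes (y axis) in the 3 comparisons of groups (panels), with the estimate as a circle and its 95% interval as a line. Filled circles passed a limma adjusted p under 0.05: Wif1 in P21_WT minus P4_WT (-1.50), none in P21_KO minus P21_WT, and Fzd1 (-1.60), Wif1 (-1.02) and Sfrp1 (-0.93) in P21_KO minus P4_WT.

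Counted together, 1 of the 10 genes was called with age, a lower one, where 1.61% of all genes were called (0.852% lower and 0.757% higher). The 2 groups did not overlap for 7 of the 10, 4 lower and 3 higher in P21_WT, against 43.5% of all genes (22.1% lower and 21.4% higher). At an unadjusted p under 0.05 there were 4 lower and 1 higher, against 7.46% and 5.17% of all genes (12.6% in all). The change was below 0 for 6 of the 10 and for 49.8% of all genes, with a median of -0.40 for the 10 and 0.0022 for all genes.

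In the genotype comparison 0 of the 10 were called by limma, as were 0% of all genes. At an unadjusted p under 0.05 there were 3 lower genes (Fzd1, Lrp5 and Dkk2) and 0 higher, against 3.69% and 2.84% of all genes (6.52% in all). The 2 groups did not overlap for 5 of the 10, 4 lower and 1 higher (Wif1), against 15.4% of all genes (7.64% lower and 7.75% higher). The change was below 0 for 6 of the 10 and for 48.6% of all genes, and the median was -0.31 against 0.0071.

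From P4_WT to P21_KO 3 of the 10 were called, all lower, where 7.73% of all genes were called (4.68% lower and 3.05% higher). The 2 groups did not overlap for 7 of the 10, 6 lower and 1 higher, against 29.6% of all genes (15.5% lower and 14.2% higher). At an unadjusted p under 0.05 there were 6 lower and 0 higher, against 12.4% and 8.1% of all genes (20.5% in all). The change was below 0 for 8 of the 10 and for 47.3% of all genes, and the median was -0.75 against 0.019. That comparison shares its arrays with the other two, and its change is the sum of theirs.

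The other genes of the pathway were taken from 6 lists, with 94 measured besides the 10. Of these, 3 were called higher and 2 lower with age (5.32% called, against 1.61% of all genes). By genotype 0 were called, as were 0% of all genes. From P4_WT to P21_KO 7 were called higher and 11 lower (19.1% called, against 7.73% of all genes). The rest of the secreted antagonists held the largest rise. Sfrp5, an antagonist of the same family as Sfrp1 and Sfrp2, read 4.52 and 3.96 in P4_WT, 6.45 and 7.01 in P21_WT and 7.20 to 7.44 in P21_KO. It rose by 2.49 ± 0.25 (SE) with age (5.63-fold, limma adjusted p = 0.00341) and was 3.04 ± 0.22 (SE) higher in P21_KO than in P4_WT (limma adjusted p = 0.000239), opposite in direction to Sfrp1. Both calls held without each array in turn, and with only the 2 groups compared in the fit the age call was missed (limma adjusted p = 0.0698). Genes of Schwann cells and glia rose alongside, 10 of 13 with age (median change 0.64). Past the threshold with age were 6 higher and 1 lower, against 0.757% and 0.852% of all genes. The list means were 6.51 to 6.64 in P4_WT, 6.98 to 7.12 in P21_WT and 7.03 to 7.42 in P21_KO. Keratinocyte markers rose with age as well, 12 of 14 (2 called higher and 0 lower, median change 1.06). The part of either list in the Sfrp5 values was not tested.

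Of the 14 other antagonists, 1 was called higher and 0 lower with age, against 0.757% and 0.852% of all genes. In P21_KO against P4_WT 1 was called higher and 2 lower, against 3.05% and 4.68% of all genes. Those called lower were Igfbp4, whose protein binds insulin-like growth factors and can also block Wnt receptors, and Apcdd1, a membrane-bound inhibitor. Igfbp4 read 5.91 and 5.81 in P4_WT, 5.03 and 4.79 in P21_WT and 3.84 to 4.27 in P21_KO, the same stepwise order as Fzd1. It fell by 1.74 ± 0.17 (SE) from P4_WT to P21_KO (limma adjusted p = 0.000995, kept without each array in turn), while its age difference of -0.95 had a limma adjusted p of 0.0574 (0.0399 without P21_KO replicate 4). Apcdd1 was at -1.70 (limma adjusted p = 0.0396), a call that was missed without each P21_KO array in turn, at limma adjusted p from 0.0535 to 0.0853. Without P4_WT replicate 1 it was at -2.37, and without replicate 2 at -1.03.

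Among 7 other Frizzled genes, 0 were called with age, against 1.61% of all genes. From P4_WT to P21_KO Fzd3 rose by 1.26 ± 0.25 (SE, limma adjusted p = 0.0214) while Fzd6 fell by 1.42 ± 0.33 (SE, limma adjusted p = 0.0388). Of all genes, 3.05% were called higher and 4.68% lower there. Fzd3 read 5.63 and 5.58 in P4_WT, 6.02 and 6.74 in P21_WT and 6.41 to 7.06 in P21_KO, a rise where Fzd1 fell. Fzd6 read 4.85 and 3.94 in P4_WT, 2.85 and 3.54 in P21_WT and 2.76 to 3.54 in P21_KO. It lay below the median of all genes on 4 arrays, where differences may be compressed. Each of these calls was missed without 4 of the 8 arrays (P4_WT replicate 1 and P21_KO replicates 2 and 3 for both, P4_WT replicate 2 for Fzd3, and P21_KO replicate 4 for Fzd6), at limma adjusted p up to 0.112 for Fzd3 and 0.246 for Fzd6. Fzd4 differed by -0.33 with genotype (limma adjusted p = 0.885).

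Of 20 other receptors and receptor-level regulators, 1 was called with age, a higher one, against 0.757% of all genes called higher. Kremen1, whose protein binds Dkk proteins together with Lrp6, read 5.72 and 5.55 in P4_WT, 6.85 and 6.83 in P21_WT and 6.35 to 6.99 in P21_KO. It rose by 1.21 ± 0.22 (SE) with age (limma adjusted p = 0.0422), and this call was kept without P21_KO replicate 1 and missed without each of the other 7 arrays, at limma adjusted p from 0.0608 to 0.177. It was also higher in P21_KO than in P4_WT (1.11 ± 0.19 SE, limma adjusted p = 0.0122; 0.0514 without P4_WT replicate 1 and 0.0828 without replicate 2). Keratinocyte markers were higher in the same comparisons. With age 12 of 14 were higher (2 called, median change 1.06), and in P21_KO against P4_WT 13 of 14 (3 called, median change 0.59). Of all genes, 0.757% and 3.05% were called higher in these comparisons. The part of the keratinocyte list in the Kremen1 values was not tested. Musk, better known as the kinase of the nerve-muscle synapse, was 1.61 higher in P21_KO than in P4_WT (limma adjusted p = 0.0027). Its P4_WT values, 2.61 and 2.73, lay below the median of all genes. Adgra2, a co-activator of Wnt7 signals, fell by 1.66 (limma adjusted p = 0.00236), and Tspan12, a co-activator of Fzd4, fell by 1.84 (limma adjusted p = 0.00943; 0.0752 without P4_WT replicate 2). Adgra2 had the smallest p of the list with genotype, at -1.09 ± 0.20 (SE), and did not pass (limma adjusted p = 0.346).

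**Figure D4:**
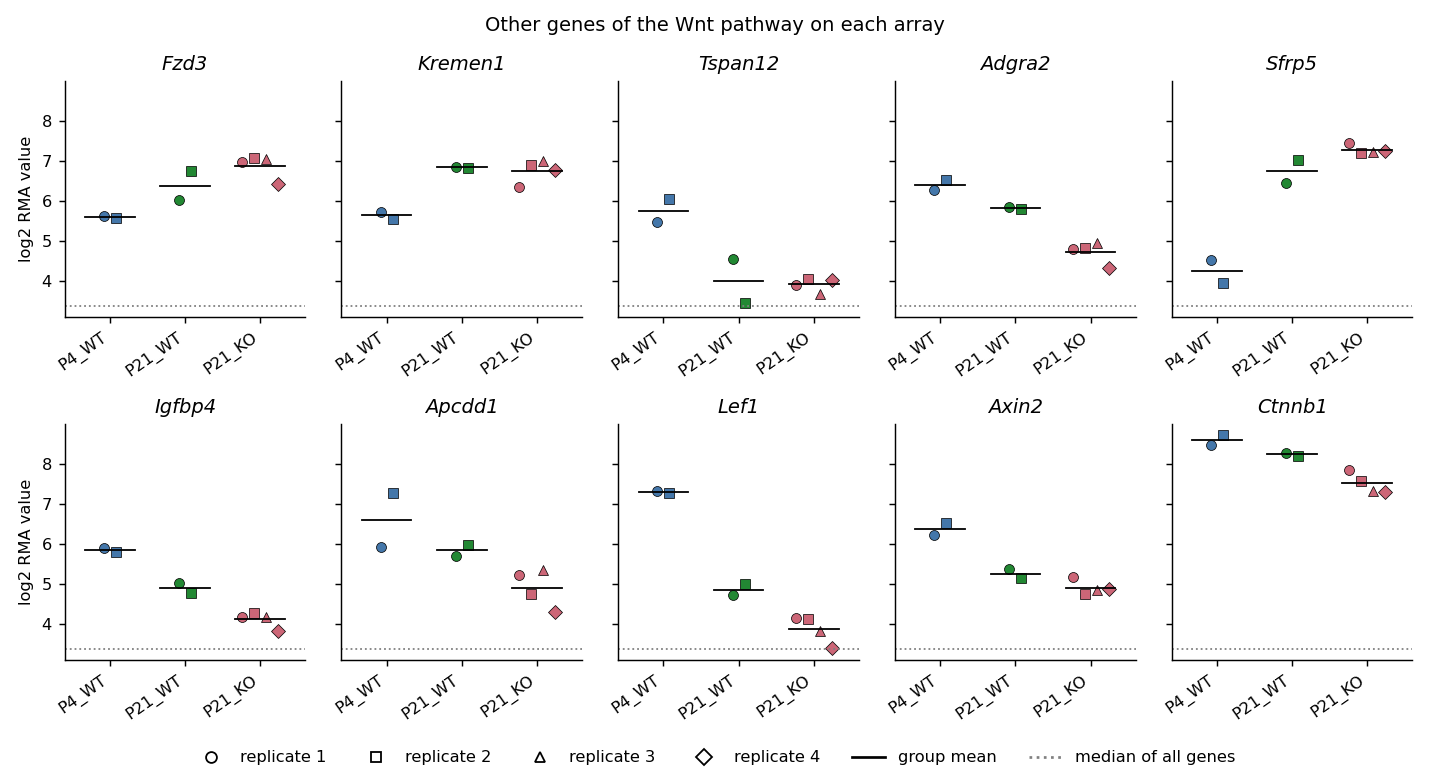
log2 RMA value (y axis) of 10 other Wnt pathway genes on each of the 8 arrays, by group (x axis), with 1 point per array (shape gives the replicate number), group means as solid lines and the median of all genes as a dotted line. Sfrp5 and Kremen1 are higher in both P21 groups than in P4_WT, and Lef1 and Igfbp4 step down from P4_WT (7.26 and 7.32 for Lef1) through P21_WT to P21_KO (3.40 to 4.15).

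None of 19 Wnt ligand genes was called in any comparison with limma, and 0 had an unadjusted p under 0.05 in any of the 3. Of all genes, 12.6%, 6.52% and 20.5% had such a p by age, by genotype and from P4_WT to P21_KO. Wnt5b (-0.39) and Wnt9a (0.38) had the smallest p with age, and Wnt4 (-0.41) and Wnt10b (0.52) with genotype. Wnt5b, Wnt9a and Wnt10b read below the median of all genes on 7 of 8 arrays each, so changes in them are not well measured. Of 16 genes of ligand secretion and the cytoplasmic core, 0 were called with age (1.61% of all genes). In P21_KO against P4_WT 2 were called lower (4.68% of all genes). These were Wls, the carrier of Wnt proteins to the cell surface (-1.58 ± 0.31 SE, limma adjusted p = 0.0195), and Ctnnb1, the gene of beta-catenin (-1.08 ± 0.19 SE, limma adjusted p = 0.0121). The Wls call was missed without P4_WT replicate 1, P4_WT replicate 2 or P21_KO replicate 3, at limma adjusted p up to 0.115, and the Ctnnb1 call without P4_WT replicate 2 (0.0876). The tankyrase genes Tnks (-1.02) and Tnks2 (-0.41) did not pass with age.

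Of 18 feedback targets, LEF/TCF factors and their partners, 1 was called higher and 2 lower with age, against 0.757% and 0.852% of all genes. Lef1, a transcription factor gene and itself a Wnt target, read 7.32 and 7.26 in P4_WT, 4.72 and 4.99 in P21_WT and 3.40 to 4.15 in P21_KO, and from P4_WT to P21_KO it fell by 3.41 ± 0.23 (SE, limma adjusted p = 0.000226). Axin2, a feedback inhibitor, read 6.22 and 6.52, then 5.37 and 5.16, then 4.76 to 5.17 in the same order of groups, and fell by 1.46 ± 0.17 (SE, limma adjusted p = 0.00227). These 2 genes, like Fzd1 and Igfbp4, were lowest in P21_KO, although none of the 4 passed between P21_KO and P21_WT. Bcl9l, a beta-catenin co-activator, rose by 1.06 with age (limma adjusted p = 0.042). With age, the calls of Axin2 and Bcl9l were each missed without 7 of the 8 arrays, kept without P21_KO replicate 1 for Axin2 and without P21_KO replicate 4 for Bcl9l, at limma adjusted p up to 0.171 and 0.189.

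In P21_KO against P4_WT, 3 of these 18 genes were called higher and 4 lower, against 3.05% and 4.68% of all genes. The others past the threshold were Tcf7l2 (1.04), Tle2 (1.07) and Bcl9l (0.75) on the higher side, and Ccnd1 (-1.85) and Pygo1 (-1.47) on the lower side, with limma adjusted p of 0.0114, 0.00524, 0.0336, 0.011 and 0.046. Tle2 encodes a co-repressor and Ccnd1 a cyclin. The call was missed for Tcf7l2 without P4_WT replicate 2 (0.0791), for Ccnd1 without P4_WT replicate 1 (0.0837), for Bcl9l without 5 of the 8 arrays (both P4_WT arrays and P21_KO replicates 1, 2 and 3, up to 0.165), and for Pygo1 without each array but P21_KO replicate 4 (up to 0.282). Tle4 was at -1.05 with genotype (limma adjusted p = 0.652).

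Among 10205 genes, those whose values followed Fzd1 most closely over the 8 arrays were Lsm6 (Pearson r = 0.990), Igfbp4 (0.990) and Mgst1 (0.985). For Wif1 they were Xylt2 (0.982), Ndufv2 (0.954) and Zfp367 (0.953), and for Sfrp1 they were Fkbp11 (0.982), Smchd1 (0.978) and Tcf19 (0.978). The candidates were genes with a mean at or above the median of all genes. These are the highest of many correlations across 8 arrays that fall into 3 groups, and they describe likeness in these data only. Of the 9 genes, Igfbp4 is also in the pathway lists.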

How the data were processed

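Cells sorted from skin were measured on 8 arrays. The authors deposited log2 values, which they made with RMA; the submitters' processing notes name Affymetrix Expression Console, and its version is not given in the sources used here. RMA corrects background, brings arrays to one distribution and compresses differences near the floor. Of 41345 rows, 23521 had exactly 1 gene symbol in the platform annotation, and the probe set with the highest mean was kept for each of 22180 genes (Lrp6 and Sfrp2 had 2). With limma 3.58.1 in R 4.3.3 (lmFit, eBayes), 1 linear model of the 3 groups took in all 8 arrays and all genes, with 5 residual degrees of freedom. P-values are two-sided and adjusted over all genes (Benjamini-Hochberg); a gene was called under 0.05. Precision is limited by how few arrays each group holds. The script was tested on simulated data.

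The 10 genes, the lists and the tests were chosen with earlier results of these data known. Which marker list stands beside a gene followed no fixed rule, and other lists often moved in the same direction. Named in the text are the 10 genes, other pathway genes called in any comparison, and for each list up to 2 others with the smallest p by age and by genotype, plus the 3 genes most like each called member, unnamed gene models left out. Alternatives changed which arrays entered (each left out in turn), the variance prior, the weighting and scaling of arrays, the treatment of dim genes and probe sets, blocks and the threshold. Leaving out an array of P4_WT or P21_WT left that group with only its other array and no spread of its own. Calls kept, gained or lost in such fits rest on that array alone for the group.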

Additional observations from a re-analysis of the deposited data

Results flagged for a closer look

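In P21_KO, the group with 4 arrays, 4 of 36 named genes had 1 array far from the other 3 for the spread of the group; chance alone gives about 1 such gene in 20, and 0 of the 10 receptor and antagonist genes were among them. Fzd3 read 6.41 in P21_KO replicate 4 against 6.96 to 7.06 in the others. Tcf7l2 read 6.83 there against 7.30 to 7.34, and Tnks 5.16 against 6.30 to 6.44. Fzd6 read 3.54 in P21_KO replicate 1 against 2.76 to 2.83.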

How the results depend on the processing

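Of 1381 values of single genes under the alternatives, 1233 kept their direction and side of the threshold, 116 lost and 13 gained a call, and 19 changed sign. Some of these fits coincide, so the total counts some values more than once. By genotype, leaving out either P4_WT array gave the fit with only the 2 groups compared. The same held for either P21_WT array in P21_KO against P4_WT. No gene was called by genotype in the main fit, so no call could be lost there. In the age comparison 357 genes were called, 49 with only the 2 groups compared and 674 at an adjusted p under 0.10 in limma. Called members then numbered 1, 0 and 2, and from P4_WT to P21_KO they numbered 3, and 1 with only the 2 groups compared. Leaving out each array gave 119 to 338 genes and 0 to 1 members with age, 0 to 15 genes by genotype, and 921 to 1529 genes and 1 to 3 members for P21_KO against P4_WT. Replicate numbers did not pair the samples (correlations of deviations -0.037 to 0.0057). With the replicate block the age count was 45 with 0 members, and knockout P21 against P4 gave 463 genes (1715 without it) with 1 member; Fzd2 turned to 0.0051 by genotype and Dkk3 to 0.10 from P4_WT to P21_KO. Centred arrays turned the values of Lrp6, age comparison (-0.030), and Sfrp1, genotype comparison (-0.0057). The Lrp6 difference was -0.37 and -0.41 with every probe set tested, and -0.17 and -0.15 with the mean of its probe sets, by age and for P21_KO against P4_WT. Leaving out 1 array turned 5 members and Wnt9a. With age, Fzd7 ranged from -0.62 to 0.13, Lrp6 from -0.085 to 0.16 and Wnt9a from -0.12 to 0.87. By genotype, Lrp6 ranged from -0.046 to 0.20, Sfrp1 from -0.13 to 0.12 and Sfrp2 from -0.14 to 0.57, and Dkk3 from -0.44 to 0.084 for P21_KO against P4_WT. The cause was not tested. Groups of 2 arrays limit the precision. Fzd2, Dkk2, Wif1, Fzd6 and Musk read below the median of all genes on some arrays, where differences may be compressed.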
